A study of Homo sapiens with 24 samples.

Results

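HCC1395 is an established human triple-negative breast cancer cell line, and its transcriptome under an EZH2 inhibitor was compared here directly with its transcriptome under an AKT inhibitor. Of the 24 RNA-seq libraries of the study, 12 are from HCC1395, and the comparison rests on 6 of these, chosen by the treatment in their labels: 3 libraries labelled EZH2i (5 uM tazemetostat, an inhibitor of the EZH2 methyltransferase) and 3 labelled AKTi (ipatasertib at 5 uM, which blocks the AKT kinases). Neither group served as a control for the other, and a positive difference means only that the transcript was higher under tazemetostat. The other 6 HCC1395 libraries, 3 from DMSO-treated cells and 3 from cells given both inhibitors at 5 uM each, shared in the estimate of the spread and are given as levels. How long HCC1395 was treated is not given in the sources used here, because the day-by-day schedule in the labels is written for another cell line. The letters A, B and C are not said to be separate cultures, so the p-values measure the spread between these libraries, which may be technical.

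EZH2 is the catalytic subunit of Polycomb repressive complex 2 (PRC2), which methylates lysine 27 of histone H3 and holds many developmental genes silent in differentiated cells. AKT is the kinase that relays PI3K signals from growth factor receptors. It phosphorylates FOXO transcription factors and keeps them out of the nucleus, and it promotes growth, lipid synthesis and passage from G1 into S phase. Both proteins are studied as drug targets in breast cancer, and genes that tell the 2 inhibited states apart are the subject of this comparison.

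The 6 libraries held 34184316, 47217503 and 39429494 counts under EZH2i and 40829653, 39129189 and 37830698 counts under AKTi. The labelled epithelial origin was visible in KRT14, at 309 to 587 CPM (counts per 1000000 library counts, with library sizes scaled by TMM), and in KRT8, KRT18 and KRT7, while CDH1 and KRT19 stayed under 1 CPM in all 6 libraries and EPCAM between 0.807 and 5.31 CPM. The estrogen and progesterone receptor genes ESR1 and PGR were nearly silent, with 15 and 2 counts over the 6 libraries. ERBB2, the gene of HER2, was not silent, at 49.7 to 52.6 CPM under EZH2i and 57.2 to 65.8 CPM under AKTi. All 7 leukocyte markers were under 1 CPM, and CD3E was at 0. The summed endothelial markers ran from 3.22 to 3.74 CPM under EZH2i and from 1.79 to 3.04 CPM under AKTi, and of these 4 genes VWF (1.67 ± 0.28) and KDR (2.13 ± 0.84) were called higher under EZH2i. KDR had only 47 counts over the 6 libraries. Its call was lost without EZH2i A (adjusted p = 0.0639), EZH2i B (0.0936), AKTi A (0.101) or AKTi C (0.0506). The summed fibroblast markers ran from 816 to 839 CPM under EZH2i and from 919 to 935 CPM under AKTi, with DCN, LUM and PDGFRB under 1 CPM. That direction came from COL1A2, at 719 to 736 against 860 to 879 CPM, while COL1A1 (87.3 to 93.04 against 51.6 to 53.6 CPM) and PDGFRA (9.29 to 10.2 against 3.81 to 4.48 CPM) were higher under EZH2i. Mitochondrially encoded genes took 4.74 ± 0.39% of counts under EZH2i and 5.55 ± 0.19% under AKTi (SD, n = 3), a difference of -0.803 percentage points at which every EZH2i library lay below every AKTi library (exact permutation test, two-sided, p = 0.1, the smallest that 3 against 3 allows). Genes of cytosolic ribosomal proteins took 7.28% and 7.88%, a difference of -0.605 points with the same exact p of 0.1. The part of these shares in the gene-level differences was not tested. With the mitochondrial genes left out 9899 genes were called, 5658 higher under EZH2i and 4241 higher under AKTi.

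The 2 inhibited states differed over much of the transcriptome. Of 18074 genes tested, 10042 (55.6%) differed at an adjusted p under 0.05 in the quasi-likelihood test of edgeR, 5162 of them (28.6%) higher under EZH2i and 4880 (27%) higher under AKTi. The large differences leaned to 1 side: 2229 genes (12.3%) differed at least 2-fold, of which 1570 (8.69%) were higher under EZH2i and 659 (3.65%) higher under AKTi. In 11638 genes (64.4%) the 3 libraries of one group did not overlap the 3 of the other, whether called or not. These shares are the background against which the gene groups below are read. For DMSO and double-treated levels the background is the genes called at 2-fold or more. Of those higher under EZH2i, DMSO was nearer AKTi in 71.3% and the double-treated level nearer EZH2i in 62.7%. Of those higher under AKTi, DMSO was nearer EZH2i in 83.5% and the double-treated level nearer AKTi in 83.2%. The same shares over all called genes are not given here. The median log2 difference over all genes was -0.0006, a centre that the TMM scaling sets, and 0.0465 with the mitochondrial genes left out.

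**Figure D1:**
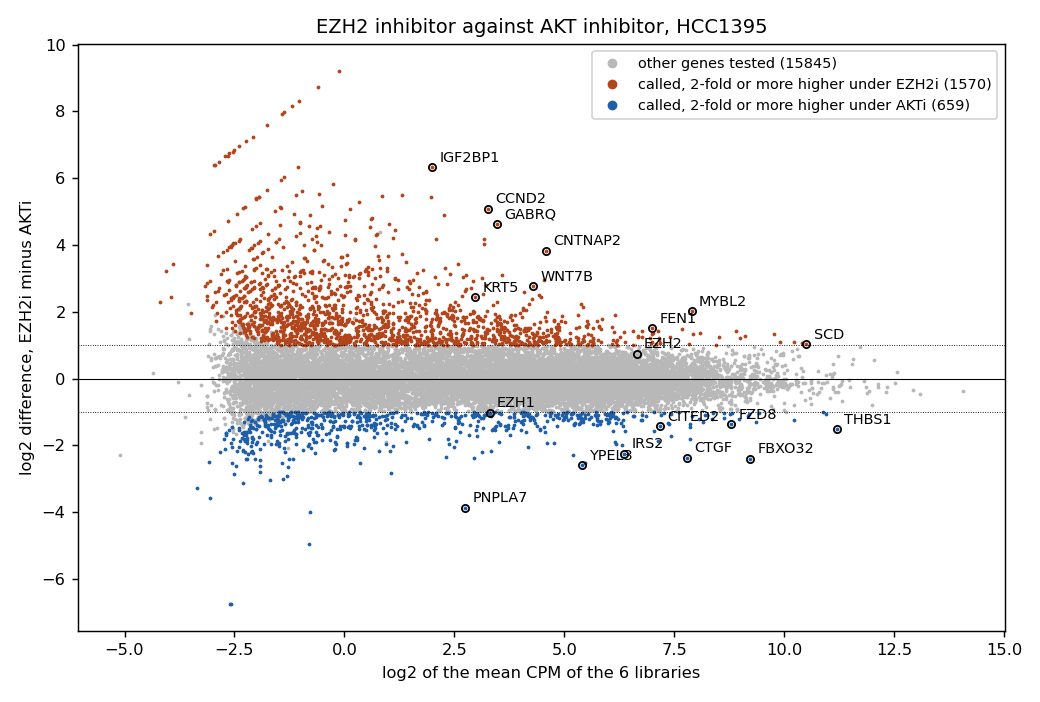
Each point is 1 of the 18074 genes tested, with the log2 of its mean CPM over the 6 libraries on the x axis and its log2 difference, EZH2i minus AKTi, on the y axis. Coloured points are the 1570 genes called at least 2-fold higher under EZH2i and the 659 called at least 2-fold higher under AKTi, dotted lines mark 2-fold, and the slanted rows of points at the left are genes with few counts in one group.

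Among called protein-coding genes averaging at least 2 CPM over the 6 libraries, with groups that did not overlap, the transcript furthest above its AKTi level was IGF2BP1 (chr17:48997412-49055650 on hg38), which encodes an oncofetal RNA-binding protein. IGF2BP1 stood at 7.697, 7.95 and 8.09 CPM in the EZH2i libraries A, B and C and at 0.126, 0.130 and 0.0267 CPM in the AKTi libraries, a log2 difference of 6.33 ± 0.39 (SE, adjusted p = 7e-15). The gene was therefore close to silent under AKTi and plainly present in each EZH2i library. CCND2 (chr12:4273772-4305350), which encodes the D-type cyclin D2, followed the same form at a higher level, with 18.04, 18.9 and 18.8 CPM under EZH2i against 0.530, 0.521 and 0.587 CPM under AKTi (5.08 ± 0.18, adjusted p = 2.24e-16). SOX2 (chr3:181711924-181714436), a pluripotency and neural stem cell factor, was at 9.09, 9.74 and 9.05 CPM against 0.328, 0.365 and 0.240 CPM (4.89 ± 0.40). SOX2 lies inside the SOX2-OT transcript on the same strand, so some of its reads may come from that RNA.

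Of the other genes among the 12, COL4A5, a basement membrane collagen chain, was at 4.76, 4.297 and 5.46 CPM under EZH2i and 0.126, 0.104 and 0.0801 CPM under AKTi, and the protocadherin PCDH7 at 7.99, 7.93 and 7.13 against 0.328, 0.0782 and 0.107 CPM. GABRQ, a GABA receptor subunit, was at 21.1, 22.5 and 19.9 CPM against 0.984, 0.625 and 0.961 CPM (4.62 ± 0.17). The neuronal adhesion gene CNTNAP2 was the most precisely measured of them, at 42.96, 47.02 and 44.6 CPM under EZH2i and 3.38, 2.89 and 3.23 CPM under AKTi (3.82 ± 0.091, adjusted p = 1.41e-17). The naming rule took only genes whose groups did not overlap and then the largest differences, so the wide gaps in these genes follow from the choice. FGFBP1, a secreted carrier of fibroblast growth factors, CRABP2, a retinoic acid-binding protein, and ENPP1, NFIA and JAM3 completed the 12, with log2 differences from 4.04 for JAM3 to 4.62 for FGFBP1. JAM3 overlaps NCAPD3 on the opposite strand, and whether the counting used strand is not given in the sources used here. The same limit holds for KRT8 and KRT18, which overlap each other, and for other genes named below that overlap a protein-coding gene on the opposite strand: TCP11L2, GINS2, TUBG1, ITGB4, LRP1, CCND1, PIK3CD, FEN1, CCNA2, FADS1, SREBF1, TPI1, PGK1, WIPI1, IFIT2, CXCL16 and THBS1. RRM2, SGK3, ETV5, FEN1, PGK1, ALDOC, EGLN3 and TIMP2 overlap a protein-coding gene on the same strand, so reads may be shared whether or not strand was used.

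At the AKTi end, the largest difference belonged to PNPLA7 (chr9:137459953-137550534), a lysophospholipase gene, at 12.2, 12.5 and 12.8 CPM in the AKTi libraries and 0.842, 0.810 and 0.910 CPM in the EZH2i libraries (-3.87 ± 0.14, adjusted p = 2.39e-15). FBXO32 (chr8:123497889-123541206), the muscle atrophy ubiquitin ligase atrogin-1 and a known FOXO target, was abundant as well as different. Its level was 1010.2, 1001 and 1017 CPM under AKTi against 188, 190.4 and 197 CPM under EZH2i (-2.395 ± 0.046, adjusted p = 2.17e-18). No AKTi library came near an EZH2i library in either gene, and the naming rule already required groups that did not overlap. CTGF, a secreted matricellular protein and YAP target, was at 364, 371 and 368 against 69.1, 71.2 and 72.9 CPM (-2.37 ± 0.046). IRS2, the adaptor that couples the insulin and IGF1 receptors to PI3K, was at 130.3, 136 and 143 against 29.5, 27.3 and 29.1 CPM (-2.25 ± 0.077). PIK3IP1, a transmembrane brake on PI3K, was at 59.8, 61.9 and 60.02 against 12.8, 13.1 and 10.9 CPM (-2.304 ± 0.070). These genes thus include a FOXO target and components at the receptor and PI3K levels of the pathway that ipatasertib blocks.

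YPEL3 (-2.59), ABTB1 (-2.54), TCP11L2 (-2.38), N4BP2L1 (-2.36), KLHL38 (-2.21), GAB2 (-2.18) and FAM189A2 (-2.17) were the other genes in the 12 furthest on the AKTi side. GAB2 is a docking protein for PI3K. Among genes averaging at least 50 CPM, those furthest to the AKTi side also included the neuronal membrane protein SLITRK6, at 128, 127 and 127 CPM against 31.1, 31.97 and 32.9 CPM, and the lysosomal protease CTSF, at 121, 110.1 and 112 against 28.8, 31.1 and 28.6 CPM. KLHL24 (-1.91 ± 0.063), the hemidesmosome integrin ITGB4 (-1.87 ± 0.052) and the endocytic receptor LRP1 (-1.81 ± 0.17) were the others. Within LRP1 the libraries spread widely, from 306 to 408 CPM under AKTi and from 84.8 to 114 CPM under EZH2i, without the overlap that the naming rule excludes. The abundant genes on the EZH2i side were mostly of another kind, the cell-cycle genes MYBL2, RRM2, GINS2, ZWINT, CENPM and TUBG1, joined by the ganglioside synthase B4GALNT1 (1.78 ± 0.065) and the BMP antagonist GREM1 (1.55 ± 0.049).

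**Figure D2:**
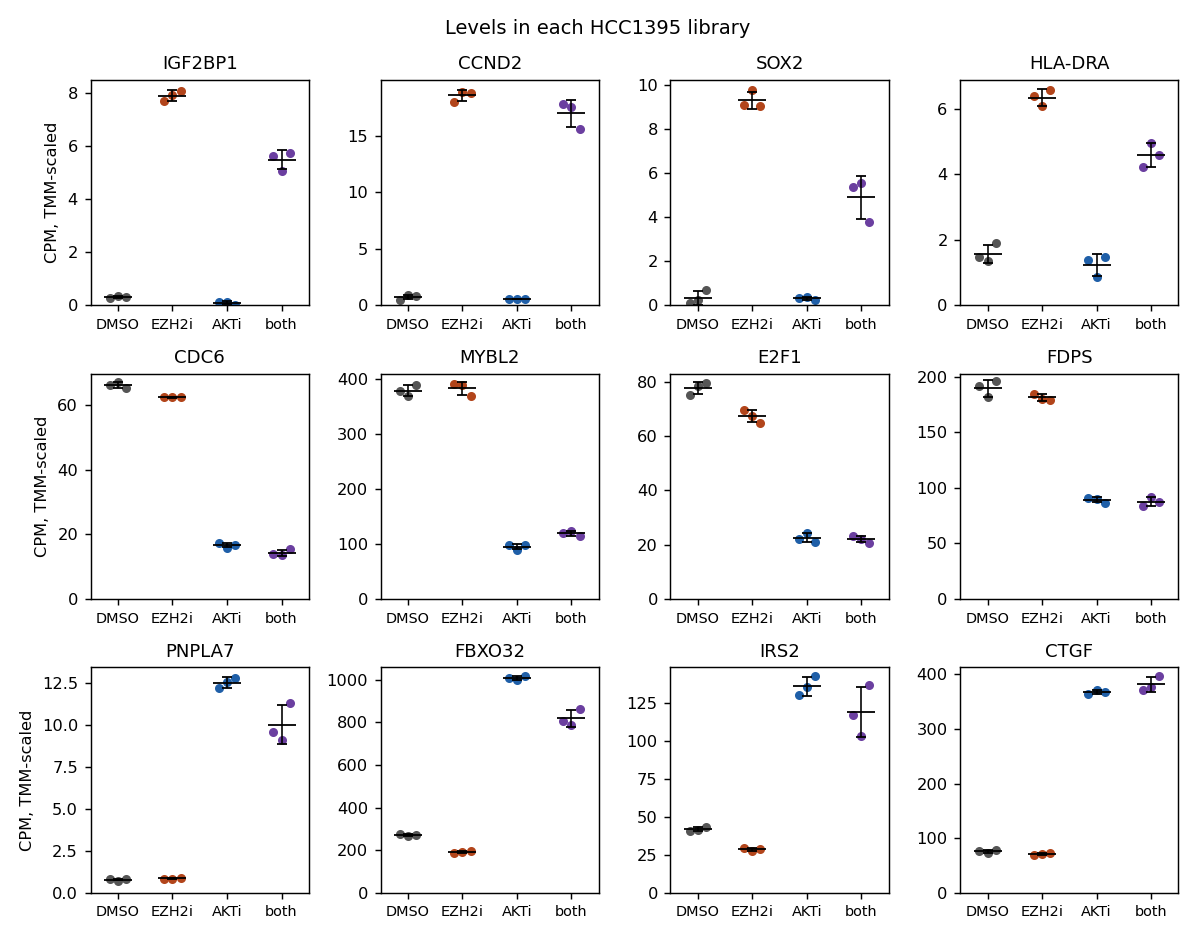
Points are the CPM values (scaled by TMM) of 12 genes in the single libraries of HCC1395 under DMSO, EZH2i, AKTi and both inhibitors, and the bar and whiskers are the mean and SD of 3 libraries. IGF2BP1, CCND2, SOX2 and HLA-DRA stand high under EZH2i and under both inhibitors, CDC6, MYBL2, E2F1 and FDPS stand low in the AKTi and double-treated libraries, and PNPLA7, FBXO32, IRS2 and CTGF stand high in those same libraries.

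The transcripts of the drug targets themselves differed. The inhibitors act on the proteins, so these levels do not check the labels. EZH2 was at 124, 125 and 127 CPM under EZH2i and at 72.1, 75.3 and 77.5 CPM under AKTi (0.74 ± 0.047, adjusted p = 4.15e-11). The DMSO libraries averaged 133 ± 4.46 CPM (SD, n = 3, as for other averages below) and the double-treated libraries 72.6 ± 1.79 CPM, so the EZH2 transcript was near its DMSO level under tazemetostat and lower in both groups given ipatasertib. EZH1, which encodes the alternative catalytic subunit, ran the other way, at 6.27, 6.46 and 6.81 CPM under EZH2i against 12.8, 13.4 and 13.6 CPM under AKTi (-1.02 ± 0.083, adjusted p = 1.59e-09). Its DMSO mean was 6.55 CPM and its mean under both inhibitors 12.4 CPM. Of 12 PRC2 genes, 6 were called higher under EZH2i and 2 under AKTi, with a median of 0.18. Besides EZH2 the 6 were the core subunit EED (0.68 ± 0.068), the histone-binding subunits RBBP4 (0.34) and RBBP7 (0.22), and the accessory subunits PHF19 (0.50 ± 0.049) and EPOP (0.96). All 6 had DMSO levels nearer EZH2i and double-treated levels nearer AKTi. PHF1 (-0.47) joined EZH1 on the AKTi side, and the core subunit SUZ12 (0.15 ± 0.065, adjusted p = 0.0503), JARID2, AEBP2 and MTF2 were not called.

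Among the 28 tested genes of AKT, PI3K and mTOR signalling, 7 were called higher under EZH2i and 10 higher under AKTi, with a median of -0.094. Over all genes tested the shares called were 28.6% and 27%. Leaving out the EZH2i library B brought the 7 down to 4. AKT1 was at 167, 169 and 156 CPM under EZH2i and 152, 151 and 147 CPM under AKTi. The difference of 0.13 ± 0.046 had an adjusted p of 0.0208, and it missed the threshold without EZH2i B (0.104), without AKTi C (0.0886) and without the low-count filter (0.073). AKT2 was not called (0.042 ± 0.053, adjusted p = 0.531). The members that did differ by 2-fold or more were PIK3IP1 and the leukocyte-type PI3K subunit PIK3CD on the AKTi side, with PIK3CD at 77.7, 74.3 and 78.4 against 30.2, 31.7 and 32.9 CPM (-1.28 ± 0.059). On the EZH2i side stood the AKT-related kinase SGK3, at 8.45, 8.91 and 9.003 against 3.46, 4.01 and 4.06 CPM (1.195 ± 0.10), and the phosphoinositide phosphatase INPP4B (2.18), the latter at under 1 CPM. SGK1, another AKT-related kinase, was higher under AKTi (-0.76 ± 0.066), as were the mTORC2 subunit RICTOR (-0.91) and the mTORC1 brakes TSC1 (-0.43) and TSC2 (-0.44).

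Developmental transcription factors formed the group that PRC2 is best known for, and most of those measured were higher under EZH2i. Of 82 genes in the list 68 passed the low-count filter, and of these 47 were called higher under EZH2i and 5 higher under AKTi, with 26 and 0 at 2-fold or more and a median log2 difference of 0.69. A gene that passes the filter only through the group where it is high had to differ, so this count describes the measured members and not all 82. The homeobox gene MSX1 was at 8.19, 7.49 and 7.404 CPM under EZH2i against 1.03, 0.808 and 1.39 CPM under AKTi (2.83 ± 0.17, adjusted p = 7.28e-12). LHX2, a forebrain and limb factor, was at 13.97, 12.8 and 13.9 against 4.01, 3.94 and 4.35 CPM (1.73 ± 0.091), and ATOH8 at 30.6, 29.1 and 30.1 against 12.9, 12.4 and 12.8 CPM (1.23 ± 0.065). In these genes, named from the list for their small p, the 3 libraries of each group lay close together and did not overlap.

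Posterior HOX genes were part of this group. HOXA13 averaged 2.25 ± 0.223 CPM under EZH2i and 0.123 ± 0.0831 CPM under AKTi (4.17 ± 0.45), HOXD13 1.51 ± 0.263 against 0.0696 ± 0.0166 CPM, and HOXB9 0.717 ± 0.285 against 0.0171 ± 0.0148 CPM. The neural crest factor SOX11 (3.28 ± 0.36), the cardiac and limb factor HAND2 (2.74 ± 0.21), the endoderm factor FOXA2 (2.27 ± 0.28) and the dental factor BARX1 (2.61 ± 0.35) were also called at over 2-fold. More abundant members differed less: the mesenchymal factor FOXC1 was at 106 ± 2.09 against 60.6 ± 4.62 CPM (0.80 ± 0.058), IRX3 at 92.8, 90.7 and 99.6 against 49.6, 47.1 and 48.3 CPM (0.96 ± 0.059), and PITX1 at 96.3 ± 1.46 against 59.1 ± 1.63 CPM (0.70 ± 0.060). The 5 members higher under AKTi were TBX3 (-0.77 ± 0.051), TBX18 (-0.85 ± 0.094), TWIST1 (-0.36 ± 0.056), ZIC2 (-0.26 ± 0.069) and IRX1 (-0.14 ± 0.053). Of the 47 higher under EZH2i, 40 had DMSO levels nearer the AKTi level and 40 had double-treated levels nearer the EZH2i level. Among all genes at 2-fold or more higher under EZH2i these shares were 71.3% and 62.7%. All 5 higher under AKTi had DMSO levels nearer EZH2i.

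The promoters of 2 such genes are shown with their CpG dinucleotides in capitals, since PRC2 is known to occupy promoters rich in CpG. Both are from the RefSeq promoter table (GRCh38.p14, 250 bases before to 50 after a start site) and give the 120 bases before the start, read 5′ to 3′ on the gene's strand: SOX2 at chr3:181711805-181711924 and MSX1 at chr4:4859545-4859664, both on the plus strand.
SOX2: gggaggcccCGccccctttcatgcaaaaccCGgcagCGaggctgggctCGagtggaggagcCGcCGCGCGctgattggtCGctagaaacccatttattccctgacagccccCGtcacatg
MSX1: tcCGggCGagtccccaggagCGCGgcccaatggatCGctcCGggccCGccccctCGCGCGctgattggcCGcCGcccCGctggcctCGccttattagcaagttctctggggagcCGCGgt
Over their full 300 bases the SOX2 promoter holds 20 CpG dinucleotides and that of MSX1 holds 31. Over 58 promoters of 43 tested developmental regulators the median was 24.5, beside 24 over 16945 promoters of 11643 tested genes. Promoters of genes at least 2-fold higher under EZH2i had a median of 23 and those of genes at least 2-fold higher under AKTi a median of 18. The developmental promoters thus held about as many CpG as those of the other genes tested. IGF2BP1 and CCND2 had no promoter in the table.

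Ligands, antagonists, receptors and target genes of BMP, activin and WNT signalling were called on both sides. Of 41 listed genes tested, 24 were called higher under EZH2i and 11 higher under AKTi, with 17 and 3 at 2-fold or more and a median of 0.59. WNT7B, a canonical WNT ligand, was at 33.7, 34.2 and 34.2 CPM under EZH2i against 4.87, 4.59 and 5.58 CPM under AKTi (2.76 ± 0.081, adjusted p = 4.11e-16). The ligand BMP7 averaged 8.86 ± 0.148 against 0.884 ± 0.0676 CPM (3.32 ± 0.17), and the activin antagonist FST 9.85 ± 0.370 against 2.15 ± 0.302 CPM (2.19 ± 0.13). The BMP antagonist GREM1 was at 101, 101 and 101 against 34.3, 34.95 and 33.9 CPM, and the BMP-responsive genes ID1 (1.299 ± 0.085) and ID3 (1.22 ± 0.084) were also higher under EZH2i. The WNT antagonist DKK1 was at 119.9, 127 and 124 CPM under AKTi against 43.3, 40.8 and 41.5 CPM under EZH2i (-1.56 ± 0.056), and the WNT receptor FZD8 at 646, 643 and 632 against 257, 248 and 242 CPM (-1.36 ± 0.054). BMP4 (-1.33 ± 0.060), INHBA (-0.90 ± 0.059) and WNT5A (-0.81 ± 0.061) were likewise higher under AKTi. In 22 of the 24 genes higher under EZH2i the DMSO level was nearer AKTi, and in 18 the double-treated level was nearer EZH2i, beside 71.3% and 62.7% of genes at 2-fold or more higher under EZH2i.

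Protocadherins and axon guidance genes gave 15 calls higher under EZH2i and 8 higher under AKTi among 30 tested, with a median of 0.26. EPHB6, a kinase-dead ephrin receptor, was at 14.5, 16.2 and 16.3 CPM under EZH2i against 2.37, 1.95 and 1.44 CPM under AKTi (3.02 ± 0.15), and the semaphorin receptor PLXND1 at 42.3, 40.00 and 43.5 against 14.6, 14.02 and 15.3 CPM (1.52 ± 0.075). Netrin-4 (NTN4) was at 88.3, 90.7 and 91.8 CPM under AKTi against 43.5, 43.8 and 42.8 CPM (-1.06 ± 0.056), and the ephrin ligand EFNA1 at 58.5, 54.4 and 52.9 against 24.3, 27.2 and 25.8 CPM (-1.099 ± 0.075). Of the oncofetal genes 3 of 8 tested were higher under EZH2i and 4 were higher under AKTi. IGF2BP1 and the H19 RNA (4.66 ± 0.87, 0.955 ± 0.230 against 0.0344 ± 0.0139 CPM) were on the EZH2i side, while the chromatin proteins HMGA1 and HMGA2 were on the AKTi side. HMGA1 was at 478, 443 and 445 CPM under AKTi against 203, 195 and 195 CPM (-1.204 ± 0.048, adjusted p = 4.67e-14), and HMGA2 at 9.84, 10.5 and 11.2 against 4.298, 4.65 and 5.24 CPM (-1.15 ± 0.10). IGF2BP2 (-0.81 ± 0.072) and IGF2BP3 (-0.51 ± 0.082) lay opposite to IGF2BP1.

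Some genes had counts in one state and none in the other. Among called genes, 18 had 0 counts in all 3 AKTi libraries, 15 of them protein-coding, and 2 non-coding entries had 0 counts in all 3 EZH2i libraries. A gene at 0 in a group passes the low-count filter only through other groups where it is higher. The call of such a gene is thus largely set by the filter, and these numbers and folds only describe the genes kept. Folds against a group at 0 are given against a floor of 3 counts over the group, 0.0260 CPM under AKTi. BCHE, which encodes butyrylcholinesterase, was at 1.89, 1.83 and 1.80 CPM in the EZH2i libraries, 226 counts in all, and was at least 70.6-fold higher there. TMEM98, a transmembrane protein gene, had 157 counts under EZH2i and was at least 49.0-fold higher, with libraries from 0.893 to 1.69 CPM. WSCD2 (119 counts, at least 37.2-fold), the homeobox gene HMX1 (110 counts, at least 34.4-fold), the neurotrophic factor gene NDNF (96 counts, at least 30.0-fold) and NAP1L2 (92 counts, at least 28.7-fold) followed. In the DMSO libraries BCHE and NAP1L2 were also at 0, and under both inhibitors they averaged 1.20 ± 0.471 and 0.461 ± 0.0644 CPM. The 2 entries at 0 under EZH2i, LINC02594 and PSAT1P3, had 38 counts each under AKTi. GATA4, among the developmental regulators, and HLA-DPB1, among the antigen presentation genes, were also at 0 under AKTi, and setting them to their bounds left the list medians at 0.69 and 0.17.

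The known targets of FOXO factors lay mostly on the AKTi side. FOXO factors are held in the cytoplasm by AKT and activate genes of growth arrest, atrophy and insulin signalling when released. Of 31 tested genes in this list 22 were called higher under AKTi and 5 higher under EZH2i, with 9 and 0 at 2-fold or more and a median of -0.60. KLHL24 was at 111, 117 and 108 CPM under AKTi against 29.1, 28.5 and 31.98 CPM under EZH2i (-1.91 ± 0.063), and CITED2, a co-activator that limits hypoxia signalling, at 216, 205 and 207 against 78.9, 77.9 and 75.8 CPM (-1.43 ± 0.044, adjusted p = 1.01e-15). The MYC antagonist MXI1 averaged 72.3 ± 1.36 CPM under AKTi and 27.95 ± 1.05 CPM under EZH2i (-1.37 ± 0.052), the mitophagy kinase PINK1 85.5 ± 6.28 against 40.3 ± 1.77 CPM (-1.08 ± 0.067), and the redox regulator TXNIP 137 ± 3.67 against 77.04 ± 0.931 CPM (-0.83 ± 0.048). CCNG2 (-0.61 ± 0.048), SESN3 (-0.58 ± 0.063), INSR (-0.66 ± 0.089) and BCL6 (-0.51 ± 0.082) differed less.

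Of these 22 genes, 21 had a DMSO level nearer EZH2i and 20 had a double-treated level nearer AKTi. Most genes at 2-fold or more higher under AKTi had the same placement (83.5% and 83.2%). TXNIP, for instance, averaged 42.98 ± 1.56 CPM in DMSO and 160.2 ± 6.89 CPM under both inhibitors. The FOXO genes themselves did not move as a block. FOXO4 was higher under AKTi, at 9.14 ± 1.06 against 3.58 ± 0.873 CPM (-1.37 ± 0.14), and FOXO6 higher under EZH2i (0.83 ± 0.10). FOXO1 was at 18.2, 17.1 and 17.9 CPM under EZH2i and 14.1, 16.4 and 15.2 CPM under AKTi and was not called (0.22 ± 0.10, adjusted p = 0.0745), although it was called in the fit of the 6 libraries alone (0.00804), without the low-count filter (0.0399) and without mitochondrial genes (0.0317). FOXO3 (-0.15 ± 0.062, adjusted p = 0.0493) lost its call in 10 of 13 alternatives, among them each one that left out EZH2i A, B or C or AKTi B or C (0.0665 to 0.237). SESN1 (0.79 ± 0.094) and the mitophagy receptor BNIP3 (0.62 ± 0.059) were members that stood on the EZH2i side.

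The FOXO motif GTAAACA was searched on both strands of the RefSeq promoters of the tested genes. It occurred in 6 of 41 promoters (14.6%) of 27 genes of the list, in 26 of 495 promoters (5.25%) of genes at least 2-fold higher under AKTi, in 45 of 1496 (3.01%) of genes at least 2-fold higher under EZH2i and in 441 of 16945 (2.60%) of all genes tested. Over all 35116 promoters of the table the share was 3.42%. The list was written as known FOXO targets, so its share is not a result of these libraries. The E-box motif CACGTG was more frequent in the list, in 8 of 41 promoters (19.5%), beside 9.05% of those of all genes tested. Motifs other than FOXO, E2F and the E-box were also searched and are not reported here. Stretches of 100 bases that hold the match are shown for 4 genes higher under AKTi, with the match in capitals, 5′ to 3′ on the gene's strand: CTSF (chr11:66568607-66568706, minus strand), TXNIP (chr1:145996660-145996759, minus), MXI1 (chr10:110210031-110210130, plus) and TCP11L2 (chr12:106302483-106302582, plus), all GRCh38.p14.
CTSF: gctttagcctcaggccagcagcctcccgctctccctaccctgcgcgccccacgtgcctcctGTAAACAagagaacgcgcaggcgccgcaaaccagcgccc
TXNIP: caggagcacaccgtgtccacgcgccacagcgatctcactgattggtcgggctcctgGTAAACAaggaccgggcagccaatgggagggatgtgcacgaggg
MXI1: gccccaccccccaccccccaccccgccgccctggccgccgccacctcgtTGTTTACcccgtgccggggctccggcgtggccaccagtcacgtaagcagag
TCP11L2: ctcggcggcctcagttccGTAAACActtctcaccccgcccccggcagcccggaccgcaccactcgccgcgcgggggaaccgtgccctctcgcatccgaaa
The match begins at position -39 from the start site in CTSF, -124 in TXNIP, -151 in MXI1 and -232 in TCP11L2, and in MXI1 it reads as the reverse complement. A match is a description of these letters, not a binding site or a cause. FBXO32, PNPLA7 and ABTB1 had no promoter in the table.

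Receptors and adaptors upstream of PI3K were more often higher under AKTi. Of 26 tested, 14 were called higher under AKTi and 7 higher under EZH2i, with 6 and 4 at 2-fold or more and a median of -0.29. Besides IRS2 and GAB2, the adaptor IRS1 averaged 196 ± 7.36 CPM under AKTi and 65.7 ± 3.499 CPM under EZH2i (-1.58 ± 0.095), and the growth factor receptor IGF1R 44.5 ± 2.04 against 21.1 ± 2.63 CPM (-1.08 ± 0.11). EGFR was at 247 ± 5.82 against 145 ± 6.13 CPM (-0.76 ± 0.10) and AXL at 474 ± 9.96 against 311 ± 8.52 CPM (-0.61 ± 0.045). The receptors higher under EZH2i were led by NTRK2, the BDNF receptor, at 159, 155 and 162 CPM against 62.3, 58.2 and 57.1 CPM under AKTi (1.42 ± 0.057). FGFR4 was at 41.4, 37.3 and 39.7 against 16.3, 14.4 and 16.2 CPM (1.33 ± 0.076), and PDGFRA at 9.29, 9.403 and 10.2 against 3.81, 4.43 and 4.48 CPM (1.19 ± 0.10). MET, FGFR2 and GAB1 were among the 5 not called.

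Genes that report ERK activity, which ERK signalling induces and which in part feed back on it, were nearly all on the AKTi side: 19 of 24 were called higher under AKTi and 1, FOS (0.55 ± 0.10), higher under EZH2i, with a median of -0.57. The feedback inhibitor SPRY2 was at 31.2, 30.7 and 28.9 CPM under AKTi against 10.8, 11.6 and 11.4 CPM under EZH2i (-1.42 ± 0.065), and the ERK phosphatase DUSP4 at 102, 103 and 103 against 40.6, 41.1 and 41.6 CPM (-1.32 ± 0.048, adjusted p = 1.14e-14). The PEA3 factors ETV1 (-1.22 ± 0.067), ETV4 (-0.99 ± 0.062) and ETV5 (-1.01 ± 0.051) were all higher under AKTi. MYC was at 182, 167 and 175 CPM under AKTi and 91.5, 86.2 and 81.9 CPM under EZH2i (-1.01 ± 0.051, adjusted p = 1.45e-12). The DMSO mean of MYC was 121 ± 4.36 CPM, between the 2 groups, and the double-treated mean was 131 ± 2.27 CPM. In 14 of the 19 genes the DMSO level was nearer EZH2i and in 16 the double-treated level was nearer AKTi. Among all genes at 2-fold or more higher under AKTi these shares were 83.5% and 83.2%, so the list does not stand out by them.

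Genes of G1/S, which build replication origins, copy DNA and supply nucleotides, were nearly all higher under EZH2i. Of 40 tested 39 were called higher there by edgeR, 32 of them at 2-fold or more, with a median of 1.34. All 40 log2 differences of that fit were above 0, so 0 were on the AKTi side at an unadjusted p under 0.05, and DESeq2 also called 0 there. The licensing factor CDC6 was at 62.3, 62.6 and 62.3 CPM under EZH2i and 17.2, 15.9 and 16.8 CPM under AKTi (1.91 ± 0.058, adjusted p = 9.01e-16), and CDC45, part of the replicative helicase, at 47.98, 48.5 and 48.5 against 13.8, 12.9 and 12.7 CPM (1.88 ± 0.060). The spread within each group was a small fraction of the gap between them. FEN1, the flap endonuclease, was at 189.8, 187 and 190.2 against 70.1, 64.9 and 65.6 CPM (adjusted p = 8.47e-16), and RRM2, the small subunit of ribonucleotide reductase, at 113, 111 and 113 against 28.6, 31.2 and 30.1 CPM (1.91 ± 0.057). The GINS complex gene GINS2 was at 85.2, 82.3 and 79.5 against 25.3, 25.5 and 24.5 CPM (1.71 ± 0.079).

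The 6 MCM helicase genes MCM2 to MCM7 differed by 1.15 (MCM4) to 1.43 (MCM6), with MCM7 at 692 ± 16.9 CPM under EZH2i and 261 ± 5.75 CPM under AKTi. The E-type cyclins CCNE1 (1.11 ± 0.093) and CCNE2 (2.23 ± 0.22) were also higher under EZH2i. The single member not called was the licensing factor CDT1 (0.092 ± 0.054, adjusted p = 0.156). In all 39 genes the DMSO level was nearer EZH2i and the double-treated level nearer AKTi: CDC6, for instance, averaged 66.1 ± 0.892 CPM in DMSO and 14.3 ± 0.900 CPM under both inhibitors. In bulk RNA a smaller share of cells in S phase and less of these transcripts in each cell cannot be told apart.

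The E2F motif, searched as TTTCCCGC or TTTGGCGC on both strands, occurred in 18 of 43 promoters (41.9%) of 34 genes of the G1/S list. Among all tested genes it occurred in 557 of 16945 promoters (3.29%), among genes at least 2-fold higher under EZH2i in 60 of 1496 (4.01%), and among genes at least 2-fold higher under AKTi in 6 of 495 (1.21%). Its share over the 35116 promoters of the table was 2.27%. Stretches of 100 bases are shown for 3 genes of the list and for E2F1, with the matches in capitals and 5′ to 3′ on the gene's strand: MCM6 (chr2:135876504-135876603, minus strand), CDC7 (chr1:91501012-91501111, plus), GINS2 (chr16:85688955-85689054, minus) and E2F1 (chr20:33686386-33686485, minus), all GRCh38.p14.
MCM6: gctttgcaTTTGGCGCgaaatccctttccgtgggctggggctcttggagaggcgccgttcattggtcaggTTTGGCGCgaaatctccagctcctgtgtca
CDC7: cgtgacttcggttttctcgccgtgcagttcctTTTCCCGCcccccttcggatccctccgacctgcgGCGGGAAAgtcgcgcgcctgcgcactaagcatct
GINS2: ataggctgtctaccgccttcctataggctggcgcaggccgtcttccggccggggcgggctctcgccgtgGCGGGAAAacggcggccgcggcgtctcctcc
E2F1: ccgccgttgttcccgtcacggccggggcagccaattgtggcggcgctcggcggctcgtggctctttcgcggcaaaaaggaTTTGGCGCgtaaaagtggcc
MCM6 holds the motif at -152 and -90 and CDC7 at -68 and -34, while GINS2 holds it at -31 and E2F1 at -20. The second CDC7 match and the one in GINS2 read as the reverse complement.

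**Figure D3:**
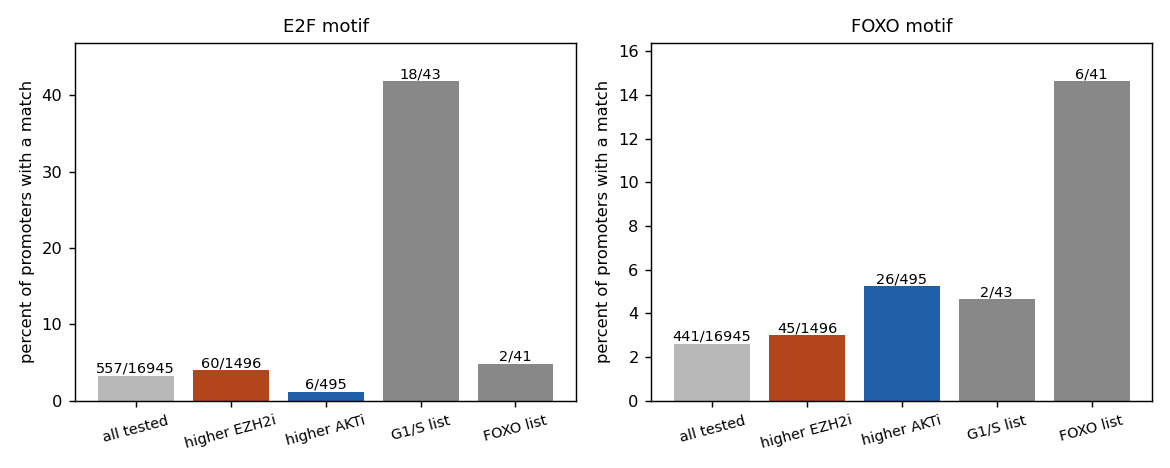
Bars are the percent of RefSeq promoters (300 bases) that hold the E2F motif (left) or the FOXO motif (right) on either strand, for all genes tested, genes called at least 2-fold higher under EZH2i or AKTi, and 2 gene lists, with the number of promoters printed above each bar. Among the sets shown, the E2F motif is most frequent in the G1/S list at 41.9% and the FOXO motif in the FOXO list at 14.6%, with 6 promoters behind the latter.

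Transcripts of many E2F, MYB and RB family genes differed too. MYBL2, a transcription factor of the S and G2 phases, was at 389.97, 388 and 369 CPM under EZH2i against 97.9, 89.4 and 97.4 CPM under AKTi (2.01 ± 0.049, adjusted p = 6.92e-17). E2F1 was at 69.4, 67.4 and 64.97 against 22.1, 24.3 and 21.1 CPM (1.58 ± 0.062), E2F2 at 66.9, 68.00 and 71.04 against 22.9, 23.2 and 24.2 CPM (1.55 ± 0.056), and the late-cycle repressors E2F7 (1.15 ± 0.11) and E2F8 (1.76 ± 0.10) followed. Of 18 E2F, MYB and RB family genes 11 were called higher under EZH2i and 2 under AKTi, with a median of 0.27. The 2 were RBL2 (-0.60 ± 0.068), the RB relative p130 of resting cells, and TFDP2 (-0.57 ± 0.065), while RBL1 (p107) was higher under EZH2i (0.84 ± 0.068). E2F3, E2F5, E2F6, MYBL1 and LIN54 were not called.

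Mitotic genes leaned the same way with smaller differences. Of 35 genes of G2/M and mitosis 31 were called higher under EZH2i, with a median of 0.52 and 1 gene, SPC25 (1.28 ± 0.081), at 2-fold, and all 35 log2 differences were above 0. CDK1 was at 129, 136 and 133 CPM under EZH2i and 69.3, 77.2 and 71.4 CPM under AKTi (0.87 ± 0.051), PLK1 at 280.1, 269 and 277 against 171, 168 and 167 CPM (0.71 ± 0.043), and CCNA2 at 282, 278 and 275 against 149, 152 and 161 CPM (0.86 ± 0.052). MKI67, the gene of the Ki-67 antigen, was not called: its libraries ran 341, 389 and 467 CPM under EZH2i and 281, 298 and 356 CPM under AKTi and overlapped (0.36 ± 0.20, adjusted p = 0.174). The other genes without a call were CENPE, CENPF and PRC1. DMSO levels were nearer EZH2i in all 31 and double-treated levels nearer AKTi in 26.

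Cell-cycle brakes and D cyclins did not share a direction. CDKN1A (p21) was at 39.4, 41.3 and 42.3 CPM under EZH2i and 17.2, 17.3 and 16.9 CPM under AKTi (1.26 ± 0.061, adjusted p = 7.49e-13), and CDKN2C (p18) at 266, 255 and 263 against 148, 145 and 138 CPM (0.87 ± 0.048). CDKN1B (p27) was higher under AKTi, at 154, 153 and 153 against 109, 106 and 109 CPM (-0.50 ± 0.043). CDKN1C (p57) was not called (2.73, 2.68 and 3.15 against 2.45, 2.35 and 2.62 CPM, adjusted p = 0.261). Of the D cyclins, CCND2 and CCND3 (0.63 ± 0.058) were higher under EZH2i and CCND1 higher under AKTi, at 309, 309 and 328 against 223, 221 and 236 CPM (-0.47 ± 0.052). Cells under the AKT inhibitor thus had more CCND1 and CDKN1B transcript and less CCND2 and CDKN1A than cells under the EZH2 inhibitor.

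**Figure D4:**
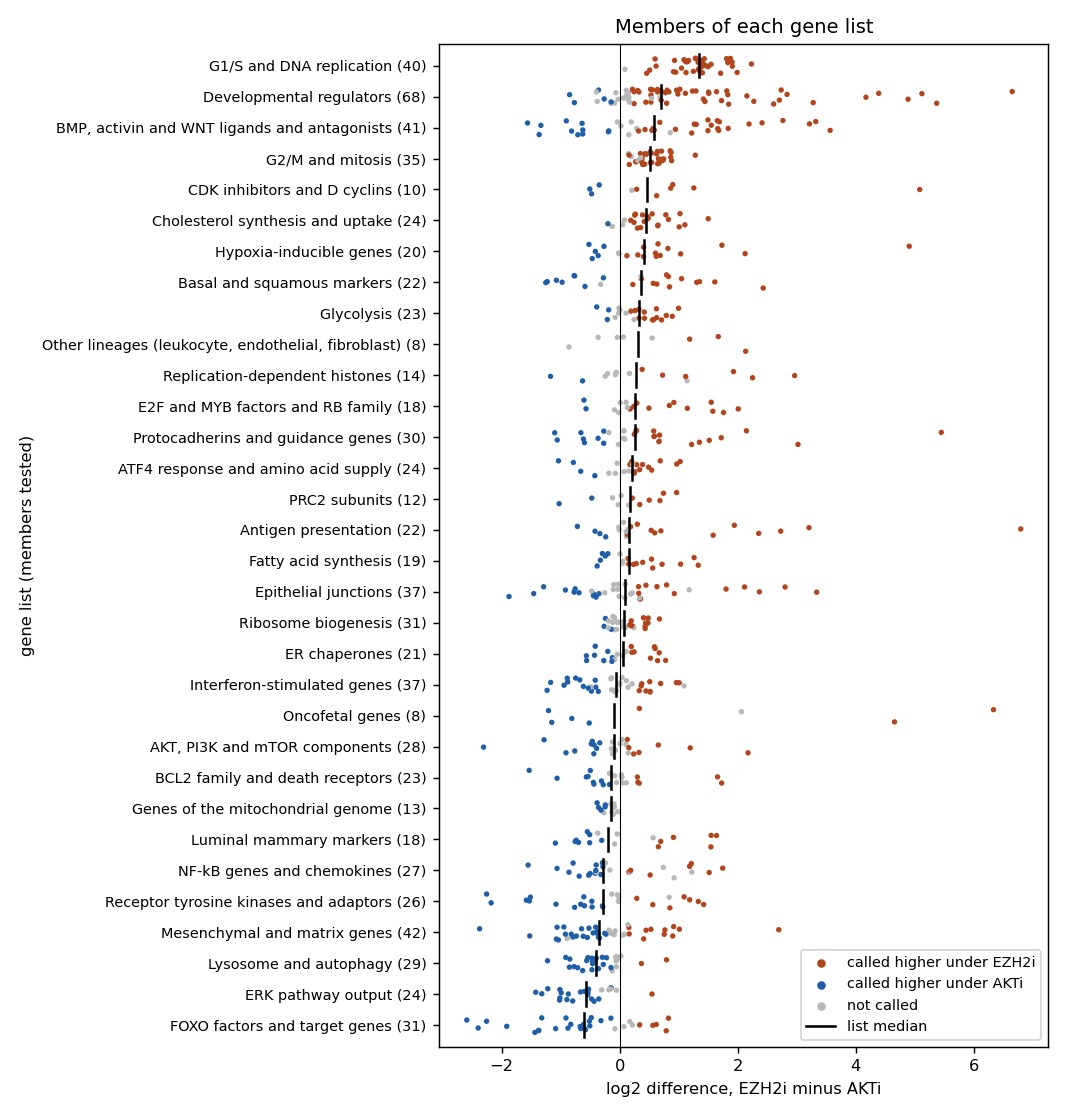
Each point is a tested member of a gene list (number tested in brackets) at its log2 difference, EZH2i minus AKTi, coloured by its call, and the black mark is the list median. The G1/S list stands furthest to the right with a median of 1.34 and the FOXO list furthest to the left with -0.60.

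AKT is known to promote lipid synthesis through the SREBP factors. Of 24 genes of cholesterol synthesis and uptake 20 were called higher under EZH2i and 1 higher under AKTi, with a median of 0.44. Without EZH2i A the count on the AKTi side was 0. FDPS, the farnesyl diphosphate synthase, was at 185, 180.3 and 179 CPM under EZH2i and 90.6, 90.4 and 86.7 CPM under AKTi (1.02 ± 0.048), and the sterol carrier STARD4 at 29.3, 32.5 and 33.3 against 10.7, 11.5 and 11.5 CPM (adjusted p = 5.11e-13). DMSO levels were nearer EZH2i in 19 of the 20, and double-treated levels nearer AKTi in all 20.

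Fatty acid genes were less uniform, with 11 of 19 higher under EZH2i, 5 higher under AKTi and a median of 0.15. The largest differences were those of the desaturase genes FADS1 and SCD and the elongase gene ELOVL7, which was at 8.597, 9.403 and 8.78 against 3.23, 3.88 and 4.08 CPM (1.26 ± 0.11). SCD was at 1927, 1949 and 1972 CPM under EZH2i against 962, 951 and 945 CPM under AKTi (1.03 ± 0.049), and FADS1 at 359, 346 and 344 against 142, 139.6 and 135 CPM (1.33 ± 0.045, adjusted p = 3.5e-15). SREBF1, which encodes the lipogenic SREBP-1, was at 561, 545 and 570.2 against 386, 383 and 383 CPM (0.54 ± 0.046), and fatty acid synthase FASN averaged 710.1 ± 30.2 against 604 ± 33.6 CPM (0.23 ± 0.058). ACSS2 (-0.38 ± 0.048), FADS3, ACSL4, ACACA and ELOVL1 were higher under AKTi.

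Of 23 glycolysis genes 14 were called higher under EZH2i and 3 under AKTi, with a median of 0.33. The largest log2 difference was 0.998, just under 2-fold, in the aldolase gene ALDOC. TPI1 was at 1639, 1684 and 1558 CPM under EZH2i and 899, 872 and 859 CPM under AKTi (0.89 ± 0.057), LDHA at 743, 742 and 711 against 451, 449 and 442 CPM (0.71 ± 0.049), and PGK1 at 390.2, 393 and 379 against 231, 216 and 225 CPM (0.79 ± 0.052). The glucose transporter gene SLC2A1 was not called (0.004 ± 0.048, adjusted p = 0.945), and PFKFB3, PFKP and HK1 were higher under AKTi. Hypoxia-inducible genes gave 13 of 20 higher under EZH2i and 5 under AKTi, with a median of 0.41. The prolyl hydroxylase EGLN3 was at 27.1, 27.6 and 26.5 against 6.86, 6.57 and 5.18 CPM (2.12 ± 0.094), and the carbonic anhydrase CA12 at 35.7, 37.4 and 38.1 against 11.8, 10.6 and 11.02 CPM (1.73 ± 0.073). CA9, a classical hypoxia marker, averaged 1.13 ± 0.104 CPM under EZH2i and 0.0345 ± 0.0399 CPM under AKTi (4.904 ± 0.79), beside 1.18 CPM in DMSO. VEGFA (0.31 ± 0.063) and HIF1A (0.41 ± 0.053) themselves differed by less.

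Targets of the stress factor ATF4 and genes of amino acid supply gave 14 of 24 higher under EZH2i and 4 under AKTi, with a median of 0.21. The amino acid transporter SLC7A5 was at 3052, 2895 and 2928 CPM under EZH2i and 1872, 1798 and 1837 CPM under AKTi (0.69 ± 0.048), and DDIT4, an mTORC1 inhibitor, at 313, 299 and 309.7 against 155, 146 and 152 CPM (1.03 ± 0.047). ATF4 itself lay on the AKTi side, at 612, 593 and 597 against 342, 354 and 351 CPM (-0.78 ± 0.055), as did the transporter SLC38A2, at 438, 453 and 455 against 211, 227 and 218 CPM (-1.04 ± 0.050). In ribosome biogenesis 12 of 31 were higher under EZH2i, among them NOP56 (0.67 ± 0.050) and nucleolin NCL (0.48 ± 0.043), and 3 higher under AKTi, with a median of 0.066. The fit of the 6 libraries alone called 8 higher under AKTi. ER chaperone genes were split, with 9 of 21 higher under EZH2i, such as PDIA4 (0.67 ± 0.044) and calreticulin CALR (0.60 ± 0.050), and 8 higher under AKTi, such as HERPUD1 (-0.56 ± 0.051). Without EZH2i A the count on the AKTi side was 5.

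Lysosome and autophagy genes were on the AKTi side. Of 29 tested, 20 were called higher under AKTi and 2 higher under EZH2i, with a median of -0.40. The autophagy kinase ULK1 was at 59.8, 58.1 and 62.5 CPM under AKTi and 24.4, 26.1 and 26.8 CPM under EZH2i (-1.22 ± 0.064), the lysosomal protease CTSB at 579, 575 and 554 against 303, 300.02 and 303 CPM (-0.91 ± 0.043, adjusted p = 5.16e-13), and WIPI1, which acts at the forming autophagosome, at 49.9, 48.6 and 48.1 against 27.2, 26.4 and 28.2 CPM (-0.84 ± 0.056). The ATG8 genes MAP1LC3B (-0.56 ± 0.052) and GABARAPL1 (-0.47 ± 0.053) and the cargo receptor SQSTM1 (-0.42 ± 0.048) were also higher under AKTi. TFEB, the factor that activates lysosomal genes, was higher under EZH2i (0.37 ± 0.065), as was the lysosomal enzyme gene GLA (0.79 ± 0.060). DMSO levels were nearer EZH2i in 19 of the 20 and double-treated levels nearer AKTi in 15, beside 83.5% and 83.2% of genes at 2-fold or more higher under AKTi.

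Among regulators of cell death 10 of 23 were called higher under AKTi and 5 higher under EZH2i, with a median of -0.14. BMF, a BH3-only protein that promotes apoptosis, was at 65.00, 60.4 and 64.8 CPM under AKTi and 47.9, 46.2 and 46.7 CPM under EZH2i (-0.43 ± 0.055, adjusted p = 1.03e-06). The DMSO libraries held 11.6, 11.03 and 10.7 CPM and the double-treated libraries 101, 92.2 and 101 CPM, so both single agents stood above all DMSO libraries and below all double-treated ones. BBC3, which encodes the BH3-only protein PUMA, separated the states more, at 16.7, 15.1 and 13.96 against 4.62, 5.54 and 5.61 CPM (-1.53 ± 0.12), with a DMSO mean of 4.72 ± 0.843 CPM. The survival genes MCL1 (-0.50 ± 0.048), BCL2L1 (-0.53 ± 0.070), BIRC3 (-1.06 ± 0.11) and CFLAR (-0.56 ± 0.070) were higher under AKTi as well. Members of the list on the EZH2i side included the pro-apoptotic genes BIK (1.66 ± 0.29) and BOK (1.73 ± 0.26), each averaging under 2 CPM.

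Interferon-stimulated genes split into 13 higher under AKTi and 10 higher under EZH2i of 37 tested, with a median of -0.064, shares near those of all genes. STAT2, a subunit of the interferon-activated factor ISGF3, was at 57.8, 54.03 and 62.2 CPM under AKTi and 25.5, 25.4 and 26.5 CPM under EZH2i (-1.17 ± 0.071), IFIT2 at 23.7, 24.6 and 23.1 against 9.32, 9.403 and 11.7 CPM (-1.23 ± 0.094), and the RNA sensor DDX58 at 28.1, 26.9 and 27.3 against 13.97, 14.4 and 16.1 CPM (-0.89 ± 0.073). OAS3 (1.01 ± 0.095), IFI27 (0.96 ± 0.19), HERC5 (0.51 ± 0.076) and IFI6 (0.45 ± 0.067) were higher under EZH2i. All 13 on the AKTi side had DMSO levels nearer EZH2i and double-treated levels nearer AKTi, and the 10 on the EZH2i side had DMSO levels nearer AKTi in 9 and double-treated levels nearer EZH2i in all 10. Such placements were common among genes at 2-fold or more, with 83.5% and 83.2% on the AKTi side and 71.3% and 62.7% on the EZH2i side.

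Of 22 antigen presentation genes tested, 12 were higher under EZH2i and 4 under AKTi, with a median of 0.17, and all 6 genes at 2-fold or more belonged to MHC class II presentation. HLA-DRA was at 6.39, 6.08 and 6.59 CPM under EZH2i and 1.39, 0.860 and 1.47 CPM under AKTi (2.36 ± 0.17), and the invariant chain CD74 at 6.83, 6.31 and 6.44 against 2.45, 2.11 and 1.95 CPM (1.58 ± 0.13). HLA-DPA1 (3.21 ± 0.32), HLA-DRB1, HLA-DMB and HLA-DPB1 were the other 4, at under 3 CPM. CIITA, the master regulator of class II genes, was not called (0.14 ± 0.19, adjusted p = 0.553). Genes of class I presentation were called on both sides. The peptide transporter subunit TAP2 was higher under EZH2i, at 46.3, 49.5 and 48.8 against 29.6, 29.6 and 30.1 CPM (0.70 ± 0.053, adjusted p = 5.98e-10), as was the immunoproteasome subunit PSMB9 (0.60 ± 0.075). The non-classical class I gene HLA-E was higher under AKTi, at 227, 221 and 217 against 138, 133 and 133 CPM (-0.72 ± 0.045), with B2M (-0.24 ± 0.060) and TAPBP (-0.42 ± 0.048), while HLA-B differed little (0.13 ± 0.055) and HLA-C was not called. HLA genes are close copies of one another, so reads may be shared between them. Leukocyte markers were at or under 0.677 CPM in all 6 libraries, so class II levels were not accompanied by levels of these markers.

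NF-kB genes and chemokines gave 13 of 27 higher under AKTi and 7 under EZH2i, with a median of -0.28. The 7 became 4 without EZH2i B and 4 without AKTi C. NFKBIZ, an inducible NF-kB cofactor, was at 10.8, 12.4 and 12.7 CPM under AKTi and 2.79, 4.57 and 4.75 CPM under EZH2i (-1.55 ± 0.17), and the ubiquitin ligase gene BIRC3 at 12.3, 13.3 and 14.7 against 6.42, 6.23 and 6.67 CPM. The chemokines CXCL12, at 47.9, 50.3 and 48.4 against 21.5, 20.98 and 22.02 CPM (1.18 ± 0.062), and CXCL16, at 19.9, 17.3 and 18.7 against 7.04, 6.12 and 6.33 CPM (1.52 ± 0.086), were higher under EZH2i. They differed in their other levels: the DMSO mean was 49.7 CPM for CXCL12 and 7.01 CPM for CXCL16. CXCL8 was at 15.02, 15.7 and 15.2 CPM under EZH2i and 17.4, 20.2 and 18.8 CPM under AKTi (-0.29 ± 0.082, adjusted p = 0.00461), both far below its DMSO mean of 41.8 ± 0.797 CPM.

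Markers of mammary epithelial identity were divided between the 2 states. The summed level of 9 epithelial markers (EPCAM, CDH1, KRT5, KRT7, KRT8, KRT14, KRT17, KRT18 and KRT19) was 685 to 727 CPM under EZH2i and 477 to 513 CPM under AKTi, most of it KRT14. Of 18 luminal genes tested 6 were higher under EZH2i and 8 under AKTi, and of 22 basal and squamous genes 12 and 8, with medians of -0.19 and 0.37. Over all genes tested 28.6% were called higher under EZH2i and 27% under AKTi. The luminal keratin KRT8 was at 102, 92.2 and 88.4 CPM under AKTi and 47.1, 42.9 and 42.8 CPM under EZH2i (-1.09 ± 0.075, adjusted p = 3.79e-10), whereas its partner KRT18 was at 48.5, 48.4 and 48.3 and 50.8, 47.1 and 43.4 CPM and was not called (-0.040 ± 0.068, adjusted p = 0.651). KRT8 and KRT18 overlap on opposite strands and may share reads. GATA3, the luminal master regulator, was at 3.86, 2.94 and 4.22 CPM under AKTi and 2.85, 2.72 and 2.19 CPM under EZH2i (-0.51 ± 0.17, adjusted p = 0.0134). The GATA3 call was lost without EZH2i C (adjusted p = 0.0722) and without AKTi C (0.0783). ALDH1A3, a retinoic acid synthase of luminal progenitors, was at 158, 145 and 166 against 95.1, 95.9 and 98.3 CPM (-0.70 ± 0.055), and ELF3 (1.55 ± 0.21) and CD24 (0.91 ± 0.070) were higher under EZH2i.

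Basal and stress keratins were on the EZH2i side. KRT5 was at 14.8, 12.5 and 12.6 CPM under EZH2i and 2.497, 2.53 and 2.35 CPM under AKTi (2.43 ± 0.11, adjusted p = 2.27e-13), KRT6B at 183, 183 and 190.3 against 72.6, 71.1 and 74.1 CPM (1.35 ± 0.047), and KRT14 averaged 575 ± 13.3 against 320.3 ± 9.803 CPM (0.84 ± 0.052). KRT6A (1.61 ± 0.16) and KRT16 (0.57 ± 0.061) followed, and keratins of the KRT6 group are near-identical copies whose reads may be shared. The integrin subunit gene ITGB4 was at 226, 210.4 and 218 CPM under AKTi and 58.7, 57.9 and 62.2 CPM under EZH2i (-1.87 ± 0.052, adjusted p = 4.11e-16), its partner ITGA6 at 549, 555 and 559.7 against 319, 325 and 331 CPM (-0.77 ± 0.058), and the laminin-332 chain LAMB3 at 156, 150.4 and 156 against 63.3, 64.1 and 66.9 CPM (-1.25 ± 0.045). TP63, the basal epithelial factor, was also higher under AKTi (-0.97 ± 0.10).

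Junction genes gave 13 calls higher under EZH2i and 11 higher under AKTi among 37 tested, with a median of 0.088. These shares are near the 28.6% and 27% of all genes tested. The desmosome gene DSP averaged 32.1 ± 2.33 CPM under EZH2i and 6.24 ± 0.713 CPM under AKTi (2.37 ± 0.18), and the splicing factor ESRP1, which maintains epithelial isoforms, 1.51 ± 0.206 against 0.147 ± 0.0629 CPM (3.34 ± 0.53). Plakoglobin JUP was opposite, at 83.3, 81.6 and 78.04 CPM under AKTi against 34.4, 31.2 and 34.02 CPM (-1.29 ± 0.056). DMSO levels were nearer AKTi in 12 of the 13 higher under EZH2i and nearer EZH2i in 10 of the 11 higher under AKTi, so most of these genes stood above DMSO in the state where they were high. The same placement of DMSO held in 71.3% and 83.5% of all genes at 2-fold or more. Mesenchymal and matrix genes were more often higher under AKTi, with 23 of 42 on that side, 11 on the EZH2i side and a median of -0.35. THBS1 was at 3345, 3437 and 3688 CPM under AKTi against 1212, 1194 and 1239 CPM under EZH2i (-1.52 ± 0.064), TIMP2 at 1314, 1346 and 1337 against 699.8, 689 and 688 CPM (-0.94 ± 0.043), and the YAP target CYR61 at 638, 635 and 647 against 338, 336 and 342 CPM (-0.92 ± 0.043). Vimentin VIM (-1.07 ± 0.064) and fibronectin FN1 (-1.06 ± 0.11) were also higher under AKTi, while the collagenase MMP13 (2.695 ± 0.19) and COL1A1 (0.77 ± 0.061) were higher under EZH2i. The summed fibroblast markers were higher under AKTi through COL1A2, while COL1A1 and PDGFRA were lower there, and their part in these differences was not tested.

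The DMSO libraries show on which side of the DMSO level each class of genes lay. Each gene called at 2-fold or more was placed on a line from its AKTi level (0) to its EZH2i level (1), on the log2 scale with 0.5 CPM added. For the 1570 genes higher under EZH2i the DMSO level had a median position of 0.20 and was nearer AKTi in 1119 (71.3%). For the 659 genes higher under AKTi its median position was 0.81, and it was nearer EZH2i in 550 (83.5%). In both classes most genes therefore stood in DMSO close to the state where they were low. The 451 genes of the first class (28.7%) with DMSO nearer EZH2i include the G1/S genes called at 2-fold.

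The double-treated libraries stood closer to the high state in both classes. Their median position was 0.64 for the genes higher under EZH2i, nearer EZH2i in 984 (62.7%), and 0.19 for those higher under AKTi, nearer AKTi in 548 (83.2%). In 338 genes of the first class (21.5%) the level under both inhibitors was above that of either agent alone, and in 177 of the second (26.9%). FST, for example, averaged 0.749 CPM in DMSO, 2.15 CPM under AKTi, 9.85 CPM under EZH2i and 23.4 CPM under both. These positions share the libraries that define the classes, so they are given as a description with no test.

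**Figure D5:**
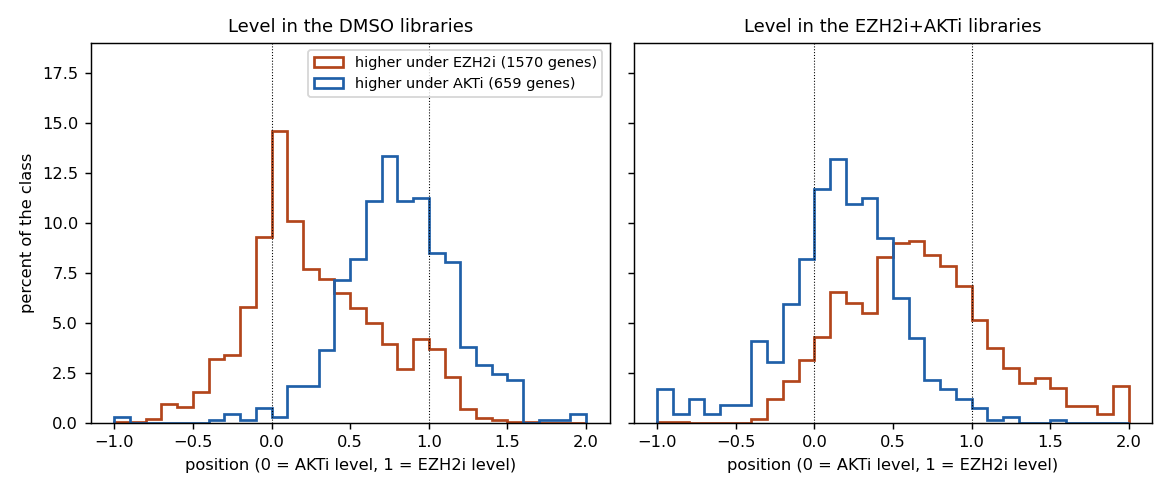
The histograms give the position of the DMSO level (left) and of the double-treated level (right) for genes called at least 2-fold higher under EZH2i (1570) or AKTi (659), with 0 at the AKTi level and 1 at the EZH2i level on the log2 scale and values beyond -1 or 2 drawn at the edge. In DMSO the 2 classes centre at 0.20 and 0.81, each near the state where its genes were low, and under both inhibitors at 0.64 and 0.19, nearer the state where they were high.

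The 2 classes also differed in the kind of gene they held and in how strongly these were expressed in DMSO. Protein-coding genes made up 84.3% of the 1570 genes higher under EZH2i, 59.6% of the 659 higher under AKTi and 77.3% of all genes tested, and long intergenic RNAs 6.18%, 14.3% and 5.94%. Per kilobase of exon, the protein-coding genes higher under EZH2i had a median of 0.187 CPM in DMSO, those higher under AKTi 1.05 CPM and all those tested 3.87 CPM. Under 1 CPM in DMSO were 54.6% of the first, 29.3% of the second and 15.2% of all. Among the genes kept, those higher under EZH2i were thus more often weakly expressed in DMSO. A gene weak in DMSO can pass the low-count filter through the group where it is high. Part of this contrast may therefore be set by the filter and the 2-fold cut. A filter that kept only genes at 1 CPM or more in at least 3 libraries reduced the 1570 to 990 and the 659 to 405.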

How the data were processed

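Poly(A) RNA was sequenced per the labels, with a kit that allows libraries with or without strand, and 12 RNA-seq libraries of HCC1395 were used. The deposited files hold raw counts per gene, 1 file a library. Per the submitters' processing notes, fastp, HISAT2 2.0.5, DESeq2 and the hg38 genome were used, with roles not stated there, while for the counting program, its annotation and its use of strand the answer is not given in the sources used here. Gene types and positions came from GENCODE 29. Of the entries, 27 carry symbols turned into dates and 1745 share a symbol, and these were kept in the library totals.

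Genes passing filterByExpr (minimum count 10) were scaled by TMM and fitted with the robust quasi-likelihood model of edgeR 4.0.16 (R 4.3.3, limma 3.58.1) on all 12 libraries, which leaves 8 residual degrees of freedom. The contrast was EZH2i minus AKTi, with Benjamini-Hochberg adjustment over 18074 genes and a threshold of 0.05, and every adjusted p in the text is from this fit unless another setting is named. CPM (counts per library size) were scaled by TMM, and ± marks the SE of a log2 difference or the SD of 3 libraries. Replicates differed by more than sampling noise (chi-square per gene from 3.84 to 6.01), so none was counted as a copy. The scripts were checked on simulated counts. The alternatives were RLE scaling, no or a stricter filter, DESeq2 1.42.0, the 6 libraries alone, the letters as a block, no mitochondrial genes and each library left out.

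The gene lists and the genes compared were chosen with earlier results of these data known. The text names the 12 largest differences each way at 2 CPM or more, the 8 largest each way at 50 CPM or more, a fixed panel and, from each list, the 4 genes of smallest p. Some genes that this rule or a list holds are not reported here. Further list members are named as examples, chosen after their values were seen. Promoters came from the RefSeq table (GRCh38.p14) and were matched by gene symbol alone for 11643 of the 18074 genes. A gene said to have no promoter there had none under its symbol in the count files.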

Additional observations from a re-analysis of the deposited data

How the results depend on the processing

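The count of called genes, 10042, was 9859 to 10859 under RLE scaling, no filter, DESeq2, the fit of the 6 libraries, the replicate block and the removal of mitochondrial genes, and 9200 under the stricter filter. That filter tested 14419 genes in place of 18074 and left 990 genes at 2-fold higher under EZH2i and 405 higher under AKTi. Leaving out 1 library gave 9080 to 9396 called genes, with 4758 to 5091 higher under EZH2i (1554 to 1640 at 2-fold) and 4041 to 4521 higher under AKTi (609 to 710 at 2-fold). It gave differences of -1.025 to -0.6746 percentage points in the mitochondrial share and -0.7701 to -0.4713 in the ribosomal share. Between 88.4% and 99.7% of the called genes were called again in the same direction under each of the 13 alternatives, and 0 were called in the opposite direction. Without mitochondrial genes the split was 5658 to 4241 and the median over all genes 0.0465. Deviations of EZH2i and AKTi libraries with the same letter were weakly correlated (0.045, 0.017 and 0.089), beside -0.072 to 0.028 for different letters. Values this small do not settle whether the letters pair the libraries. The fit with the replicate block called 10027 genes, 5164 higher under EZH2i and 4863 higher under AKTi, 1564 and 647 of them at 2-fold. Of the 163 genes chosen by the naming rule 8 changed their call under at least 1 alternative, and 7 of 64 list counts moved by over 1.5 times. A gene that an alternative did not test was skipped there. List members named only as examples were not checked one by one. For genes under about 1 CPM, few counts limit the precision of the differences.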

Other observations

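Genes at 2-fold or more sometimes followed one another in the order of the tested protein-coding genes on a chromosome. Genes that were not tested and non-coding genes were passed over, so members of a run need not be direct neighbours. The longest run on the AKTi side was 6 protocadherin genes of the gamma cluster, PCDHGA4 to PCDHGA7, at chr5:141355025-141512979, with log2 differences of 1.08 to 1.44 in size. These genes share exons, so their reads may be shared. On the EZH2i side, TCHH, FLG, SPRR2D, S100A9 and S100A8 formed a run of 5 in the epidermal differentiation region (chr1:152106317-153391188), and WNT6, WNT10A, CDK5R2, CRYBA2 and CFAP65 another of 5 (chr2:218859821-219041527). The keratin genes KRT6B, KRT6C, KRT6A and KRT5 followed each other at chr12:52446651-52520687. By chromosome, the share of tested protein-coding genes at 2-fold or more on the EZH2i side was 14.1% on chromosome 4, 13.3% on chromosome 8 and 12.03% on chromosome X. Over all chromosomes it was 1324 of 13977 tested protein-coding genes. These shares were not tested.

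Replication-dependent histone genes gave 6 of 14 tested higher under EZH2i and 2 higher under AKTi, with a median of 0.27. HIST1H2AC averaged 4.92 ± 0.29 CPM under AKTi and 2.18 ± 0.20 CPM under EZH2i (-1.17 ± 0.16), while the linker histone gene HIST1H1B averaged 0.290 CPM under EZH2i and 0.0352 CPM under AKTi. Of the 13 protein-coding genes of the mitochondrial genome 5 were called higher under AKTi, led by MT-CO1 (-0.38 ± 0.061), and 3 were called when EZH2i B, EZH2i C or AKTi A was left out. All 13 differences were below 0.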
